A study of Mus musculus with 9 samples.

Results

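The NRF2 antioxidant response genes were followed in liver RNA of mice with nonalcoholic steatohepatitis (NASH). They were 10 genes chosen by name: Nfe2l2, Keap1, Nqo1, Hmox1, Gclc, Gclm, Txnrd1, Srxn1, Slc7a11 and Gpx4. All 10 were found by symbol among the 24008 genes of the count table, and all 10 had enough counts to be among the 14379 genes tested. The comparisons asked how these genes differed in liver when IRF4 was deleted in skeletal muscle, and when FSTL1 was then supplied from muscle.

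Each of 3 groups had 3 livers, with 1 library per mouse. Every group carried floxed Irf4 on a C57BL/6J background and was fed the NASH diet. This diet was high in fat and carbohydrate, contained cholesterol and was given with a solution of fructose and glucose. Flox mice, named WT in the sample labels, kept Irf4 in muscle. F4MKO mice lacked Irf4 in skeletal muscle only, through Myl-Cre. F4MKO + FSTL1 mice had the same deletion and received an AAV8 virus in the gastrocnemius, in which the muscle creatine kinase promoter drove Flag-tagged FSTL1. According to the methods, Flox and F4MKO mice received a GFP virus, which is not stated in the labels. The diet lasted 24 weeks in the experiment design and 12 weeks in the section on the virus, with 4 weeks between injection and collection. The study's text gives an age of 8 weeks for the mice used, which for its wild-type mice was the age before the diet. In different places it names male mice alone or mice of both sexes. The labels give neither sex nor age for the sequenced animals. FSTL1 is a glycoprotein that muscle secretes, and IRF4 is a transcription factor.

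NRF2, the product of Nfe2l2, is a transcription factor that turns on genes for defence against oxidants and electrophiles. KEAP1 binds NRF2 and hands it over for degradation, and oxidants or electrophiles modify KEAP1 so that NRF2 accumulates. NRF2 then pairs with a small MAF protein at antioxidant response elements in its target genes, where BACH1 acts as a repressor. This control works mainly on the NRF2 protein, so the level of Nfe2l2 RNA does not measure NRF2 activity. In liver the pathway is known for the handling of drugs, heme and lipid peroxides.

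The gene counts of a library summed to between 20656976 and 24322984 reads. All 8 hepatocyte markers were found in every group. F4MKO replicate 1 stood apart, with the highest normalization factor (1.17) and a summed hepatocyte marker level of 70220 CPM (counts relative to the TMM-scaled library total), against 81920 to 100600 CPM in the other 8 libraries. Most of the hepatocyte sum was Alb, with means of 68420 CPM in Flox, 64700 CPM in F4MKO and 61030 CPM in F4MKO + FSTL1. Irf4 had 10 counts in F4MKO + FSTL1 replicate 1 and between 92 and 132 in the other 8 libraries. Because the deletion is confined to muscle by design, the liver count of Irf4 does not check the genotype. Values without these libraries are given beside the calls that were lost when they were left out.

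Srxn1 and Hmox1 were the members that passed the test for a change. Both fell in F4MKO + FSTL1 livers compared with F4MKO livers, Srxn1 by 1.60-fold and Hmox1 by 1.57-fold. No member was called higher in any comparison. A change was called where edgeR's quasi-likelihood p, adjusted by Benjamini and Hochberg's method over all 14379 genes, was under 0.05 and the fold change was above 1.5. In F4MKO compared with Flox, 0 of 10 members passed by edgeR and 0 by DESeq2, and 1 member (Srxn1) had an unadjusted p under 0.05. Over all genes, 39 passed in that comparison by edgeR, or 0.271%, and 336 by DESeq2. An unadjusted edgeR p under 0.05 was found for 16.9% of all genes. Between F4MKO + FSTL1 and F4MKO, 2 of 10 members passed, both lower. Without F4MKO replicate 1 the count was 1 (Hmox1), and in a test against a fold change of 1.5 rather than 0 change it was 0 (edgeR adjusted p = 0.663 for Srxn1 and 0.886 for Hmox1). Over all genes, 14.4% passed there and 11.2% passed with a lower level, and a single member weighs 10% here. Between F4MKO + FSTL1 and Flox, 0 of 10 members passed by edgeR and 0 by DESeq2, and 1 member (Hmox1) had an unadjusted p under 0.05. Over all genes, 1 gene passed by edgeR, or 0.00695%, and 284 by DESeq2, and 13.4% had an unadjusted edgeR p under 0.05.

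**Figure D1:**
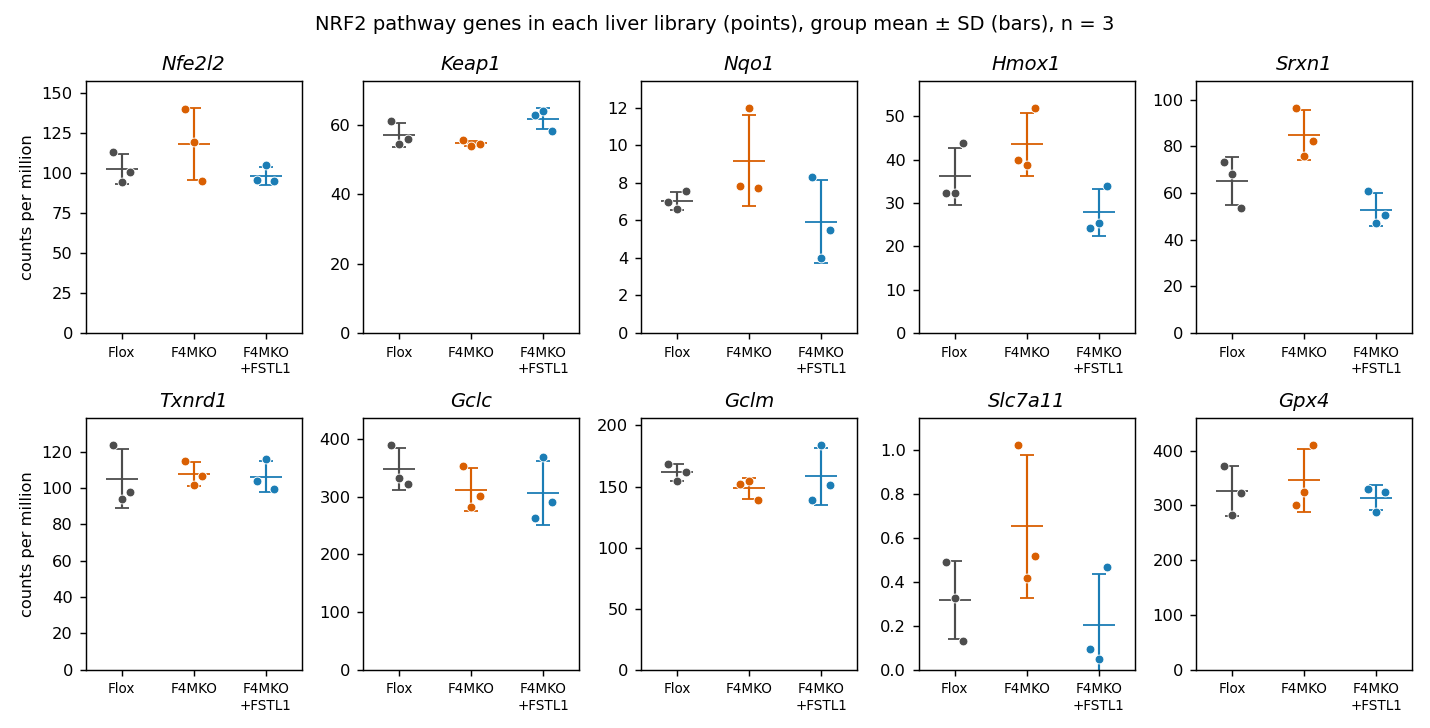
CPM of the 10 NRF2 pathway genes in each of 9 liver libraries, with a point per library and bars for the group mean ± SD (n = 3), each panel on its own axis from 0. The F4MKO + FSTL1 points of Srxn1 (47.2 to 61.1 CPM) and Hmox1 (24.2 to 33.95 CPM) all lie under the F4MKO points, while the groups overlap for Txnrd1, Gclc, Gclm and Gpx4.

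Among the 10 genes the median log2 fold change was 0.14 between F4MKO and Flox, -0.20 in F4MKO + FSTL1 compared with F4MKO and -0.12 in F4MKO + FSTL1 compared with Flox. The medians over all genes tested were -0.003, 0.0112 and -4e-04. Each group serves in 2 of these comparisons, so the fold changes are not independent of each other. The mean CPM was highest in F4MKO for 7 members, in Flox for 2 and in F4MKO + FSTL1 for 1. F4MKO had the highest mean for 40% of all genes tested. The mean was lowest in F4MKO + FSTL1 for 7 members, against 38.9% of all genes.

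Srxn1 encodes sulfiredoxin, which repairs overoxidized peroxiredoxins. The gene lies on chromosome 2 (chr2:152105516-152111376, plus strand, GRCm38). It stood at 73.5, 68.0 and 53.7 CPM in the Flox libraries. In the F4MKO libraries it stood at 96.5, 75.7 and 82.3 CPM. In the F4MKO + FSTL1 libraries the values were 61.1, 47.2 and 50.5 CPM. All 3 F4MKO libraries were above all 6 others, and F4MKO replicate 1 was the highest of the 9.

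The log2 fold change of Srxn1 in F4MKO + FSTL1 compared with F4MKO was -0.68 (SE 0.14, edgeR adjusted p = 0.00754), with a 95% interval from -0.99 to -0.37. In F4MKO compared with Flox it was 0.38 (SE 0.14, edgeR adjusted p = 0.212), with an interval from 0.07 to 0.69. In F4MKO + FSTL1 compared with Flox it was -0.30 (SE 0.14, edgeR adjusted p = 0.397), and those groups overlapped. Without F4MKO replicate 1, the difference between F4MKO + FSTL1 and F4MKO was -0.58 on the log2 scale (edgeR adjusted p = 0.036). This fold change is just under 1.5, which ended the call. Without F4MKO + FSTL1 replicate 1, Srxn1 was still called, at -0.79 (edgeR adjusted p = 0.00919).

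Srxn1 had the smallest p of the members, so the bases in front of the gene are shown. RefSeq (GRCm38.p6) gave promoter windows of 250 bases before and 50 bases after the start for 8 of the 10 members, 13 windows in all, and Hmox1 and Gclc had no entry. The 250 bases before the Srxn1 start, at chr2:152105274-152105523 on the plus strand, are printed 5′ to 3′ with matches to TGACTCA on either strand in capitals. These letters are the core that AP-1 factors bind, and they can form part of an antioxidant response element.
Srxn1: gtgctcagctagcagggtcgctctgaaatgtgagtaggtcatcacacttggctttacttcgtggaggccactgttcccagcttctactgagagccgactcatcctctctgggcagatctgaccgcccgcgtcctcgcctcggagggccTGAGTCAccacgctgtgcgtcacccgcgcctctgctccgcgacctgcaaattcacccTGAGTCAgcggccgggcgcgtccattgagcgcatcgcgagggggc
Both matches, at -102 to -96 and -45 to -39 from the start, read TGACTCA on the minus strand. Of 32851 RefSeq promoter windows of 300 bases, which include the 50 bases after the start, 1709 held TGACTCA (5.2%). A match is a description of the letters and not a measured binding site.

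The core letters of the antioxidant response element, TGACNNNGC on either strand, were present in 1 window each of 4 members, and in 4071 of the 32851 promoters (12.4%). The matches are shown with 10 bases on each side, along the strand of the gene, because NRF2 is known to act through elements with such core letters. These matches too describe letters and are not measured binding sites. The capitals mark the match.
Nfe2l2: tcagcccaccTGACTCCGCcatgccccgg
Gclm: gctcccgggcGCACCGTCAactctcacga
Txnrd1: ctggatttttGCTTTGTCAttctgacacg
Srxn1: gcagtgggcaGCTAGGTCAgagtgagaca
The Nfe2l2 match was at -240 to -232 (minus strand gene, shown window chr2:75704885-75704913). The stretch just after this RefSeq start was not found in a GENCODE vM21 transcript of Nfe2l2, so the position holds for the RefSeq start only. The Gclm match was at -134 to -126 (chr3:122245413-122245441), that of Txnrd1 at -92 to -84 from the start of its second window (chr10:82859104-82859132), and that of Srxn1 at 29 to 37 (chr2:152105542-152105570). Of these 4 genes, Srxn1 passed the test in F4MKO + FSTL1 compared with F4MKO, and Nfe2l2, Gclm and Txnrd1 did not. The letters searched cover only this window, and elements farther away were not searched.

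Txnrd1 encodes the cytosolic thioredoxin reductase, the NADPH-dependent enzyme at the head of the thioredoxin chain that also feeds sulfiredoxin. Its values were 124, 94.2 and 97.6 CPM in Flox, 115, 102 and 107 CPM in F4MKO, and 104, 116 and 99.3 CPM in F4MKO + FSTL1. The 3 groups overlapped throughout. The log2 fold change in F4MKO + FSTL1 compared with F4MKO was -0.02, with a 95% interval from -0.28 to 0.24.

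Hmox1 encodes heme oxygenase 1, which breaks heme into biliverdin, carbon monoxide and iron. The gene lies at chr8:75093621-75100589 (plus strand, GRCm38). Its level was 32.2, 32.4 and 43.8 CPM in the Flox libraries. It was 39.8, 38.9 and 51.9 CPM in the F4MKO libraries and 24.2, 25.3 and 33.95 CPM in the F4MKO + FSTL1 libraries. The highest F4MKO + FSTL1 library lay under the lowest F4MKO library but above 2 of the 3 Flox libraries.

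Hmox1 differed between F4MKO + FSTL1 and F4MKO by a log2 fold change of -0.65 (SE 0.17, edgeR adjusted p = 0.0204), with a 95% interval from -1.02 to -0.28. Between F4MKO and Flox it was 0.27 (SE 0.17, edgeR adjusted p = 0.441). In F4MKO + FSTL1 compared with Flox it was -0.38 (SE 0.17, edgeR adjusted p = 0.364). The call between F4MKO + FSTL1 and F4MKO was lost when 1 of 3 libraries was left out. Without F4MKO replicate 3 the log2 fold change was -0.50 (edgeR adjusted p = 0.0634), without F4MKO + FSTL1 replicate 1 it was -0.55 (adjusted p = 0.0702), and without F4MKO + FSTL1 replicate 2 it was -0.58 (adjusted p = 0.0859). Without F4MKO replicate 1 it stood at -0.71 (edgeR adjusted p = 0.0361) and was called.

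Hmox1 is known to be strong in macrophages that clear red blood cells, and whole liver holds several cell types. In these bulk samples, fewer cells of a type and less RNA per cell cannot be told apart. The summed level of the 10 macrophage markers was 549.3 to 864.8 CPM in Flox, 569.3 to 682.1 CPM in F4MKO and 323.3 to 520.2 CPM in F4MKO + FSTL1. Of these 10 markers, 5 (Adgre1, Cd68, Csf1r, C1qa and Cd5l) fell in F4MKO + FSTL1 compared with F4MKO, with log2 fold changes from -1.10 for Cd68 to -0.72 for C1qa. Over all genes, 11.2% passed there with a lower level. Clec4f, Vsig4, Marco, Cd163 and Timd4 did not pass, and the log2 fold change of Cd163, a receptor for hemoglobin, was 1.55 (edgeR adjusted p = 0.0851). None of the 10 was at 0 in every library of a group. The part of these cells in the change of Hmox1 was not tested.

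Other marker lists moved in the same comparison, in which 11.2% of all genes passed with a lower level. The 10 stellate cell markers summed to 555.4 to 619.9 CPM in Flox, 680.9 to 777.1 CPM in F4MKO and 395.4 to 544.6 CPM in F4MKO + FSTL1, and 6 of the 10 fell. The 10 cholangiocyte markers summed to 70.1 to 108 CPM in Flox, 182 to 460.6 CPM in F4MKO and 54.4 to 70.6 CPM in F4MKO + FSTL1, and 5 of the 7 tested fell. Most of the cholangiocyte sum was Spp1, with means of 59.9 CPM in Flox, 247.9 CPM in F4MKO and 39.7 CPM in F4MKO + FSTL1. The highest cholangiocyte sum was again in F4MKO replicate 1, the library with the lowest hepatocyte sum. All 8 markers of dividing cells fell, from sums of 32.9 to 40.2 CPM in F4MKO to 6.01 to 9.51 CPM in F4MKO + FSTL1. In Flox that sum was 15.7 to 27.5 CPM. In the cholangiocyte list, Cldn4 had at most 3 counts in each F4MKO + FSTL1 library.

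The remaining lists had fewer calls. Of 8 hepatocyte markers 1 rose (Serpina1a, log2 fold change 0.68), and of 5 erythroid genes 1 rose (Alas2, 0.62). By edgeR or by DESeq2, 0 of 10 endothelial and 0 of 5 tested lymphocyte markers passed. The unadjusted edgeR p was under 0.05 for 2 and 1 of them. Over all genes, edgeR called 14.4% there and 35.3% had an unadjusted p under 0.05. The 5 tested lymphocyte markers all had lower fitted levels, with a median log2 fold change of -0.74. The erythroid genes summed to 356.9 to 622.9 CPM in F4MKO + FSTL1 and 311.2 to 357.3 CPM in F4MKO. The part of all these cells in the levels of Srxn1 and Hmox1 was not tested.

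**Figure D2:**
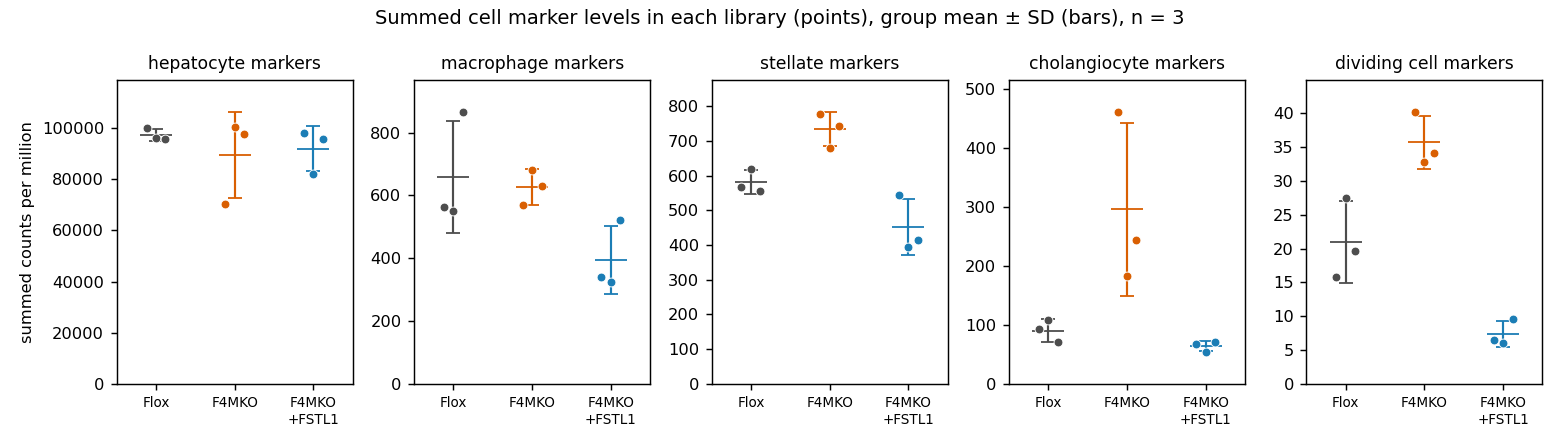
Summed CPM of the markers of 5 cell types or states in each library, with a point per library and bars for the group mean ± SD (n = 3), each panel on its own axis from 0. The stellate, cholangiocyte and dividing cell sums of the 3 F4MKO libraries all lie above those of the 3 F4MKO + FSTL1 libraries, and F4MKO replicate 1 has the lowest hepatocyte sum (70220 CPM) and the highest cholangiocyte sum (460.6 CPM). The cholangiocyte sum is mostly Spp1 and the hepatocyte sum mostly Alb.

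Nqo1 encodes a quinone reductase and is a common readout of NRF2. It was low in these livers, at 6.96, 6.60 and 7.54 CPM in Flox and 7.85, 11.98 and 7.70 CPM in F4MKO. In F4MKO + FSTL1 it was 8.32, 3.99 and 5.48 CPM. All 3 F4MKO libraries were above all 3 Flox libraries, while F4MKO + FSTL1 replicate 1 lay within the F4MKO range.

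Nqo1 had a log2 fold change of -0.63 (SE 0.25, edgeR adjusted p = 0.0964) in F4MKO + FSTL1 compared with F4MKO, and did not pass. Its 95% interval ran from -1.17 to -0.08. Without F4MKO + FSTL1 replicate 1 the log2 fold change was -0.95 (edgeR adjusted p = 0.0219) and passed. Without F4MKO replicate 2, the library at 11.98 CPM, it was -0.39 (adjusted p = 0.315). Between F4MKO and Flox it was 0.38 (edgeR adjusted p = 0.457).

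The genes of glutathione synthesis did not pass in any comparison. Gclc and Gclm encode the catalytic and modifier subunits of glutamate-cysteine ligase, the first enzyme of the pathway. Gclc stood at 390, 333 and 322 CPM in Flox, 354, 282 and 302 CPM in F4MKO, and 262, 369 and 290 CPM in F4MKO + FSTL1. Gclm stood at 169, 155 and 162 CPM in Flox, 152, 155 and 139 CPM in F4MKO, and 139, 184 and 152 CPM in F4MKO + FSTL1. In both genes the 3 groups overlapped, and F4MKO + FSTL1 replicate 1 was the lowest and replicate 2 the highest of its group. The log2 fold change in F4MKO + FSTL1 compared with F4MKO was -0.02 for Gclc (95% interval -0.34 to 0.30) and 0.09 for Gclm (-0.16 to 0.34).

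Slc7a11 encodes the cystine importer that supplies cysteine for glutathione. It was close to the detection limit, with counts of 11, 8 and 3 in Flox, 29, 10 and 13 in F4MKO, and 2, 1 and 9 in F4MKO + FSTL1. F4MKO replicate 1 held the highest count and F4MKO + FSTL1 replicates 1 and 2 the lowest. Its log2 fold change in F4MKO + FSTL1 compared with F4MKO was -1.72 (SE 0.68, edgeR adjusted p = 0.0943), with a 95% interval from -3.22 to -0.23. Without F4MKO + FSTL1 replicate 3 the value moved to -3.12 (edgeR adjusted p = 0.0217), resting on counts of 2 and 1 in the libraries left.

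Gpx4 encodes the selenium-containing peroxidase that removes lipid peroxides from membranes and protects from ferroptosis. Its values were 373, 282 and 323 CPM in Flox, 301, 325 and 411 CPM in F4MKO, and 330, 288 and 324 CPM in F4MKO + FSTL1. The groups overlapped, and F4MKO replicate 3 was the highest library. The log2 fold change in F4MKO + FSTL1 compared with F4MKO was -0.14, with a 95% interval from -0.45 to 0.18.

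The sensor pair differed little. Nfe2l2 stood at 113, 94.4 and 101 CPM in Flox, 140, 119 and 95 CPM in F4MKO, and 95.3, 105 and 94.9 CPM in F4MKO + FSTL1. F4MKO replicate 1 was the highest library, and F4MKO replicate 3 lay within the range of F4MKO + FSTL1. The log2 fold change of Nfe2l2 was 0.20 in F4MKO compared with Flox (edgeR adjusted p = 0.48) and -0.26 in F4MKO + FSTL1 compared with F4MKO (edgeR adjusted p = 0.186).

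Keap1 stood at 61.0, 54.5 and 55.9 CPM in Flox, 55.5, 54.0 and 54.4 CPM in F4MKO, and 62.9, 64.1 and 58.2 CPM in F4MKO + FSTL1. All 3 F4MKO + FSTL1 libraries were above all 3 F4MKO libraries, by a small step. The log2 fold change was 0.18 (SE 0.08, edgeR adjusted p = 0.152), with a 95% interval from -0.005 to 0.36.

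Groups that did not overlap were counted for all members. In F4MKO compared with Flox, Nqo1 and Srxn1 were higher in every F4MKO library, or 2 of 10 members, against 21.8% of all genes without overlap in either direction. Between F4MKO + FSTL1 and F4MKO, Hmox1 and Srxn1 were lower and Keap1 higher in every library, or 3 of 10, against 39.0% of all genes. Between F4MKO + FSTL1 and Flox, 0 of 10 members were without overlap, against 18.2% of all genes. A single member weighs 10% here, so these shares of 20%, 30% and 0% were not read as a difference from all genes.

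For 6 members (Nfe2l2, Keap1, Gclc, Gclm, Txnrd1 and Gpx4), the 95% interval stayed within a fold change of 1.5 (0.585 on the log2 scale) in all 3 comparisons. The same held for 42.1% of all genes tested. For Nqo1, Hmox1, Srxn1 and Slc7a11, at least 1 interval reached past a fold change of 1.5. These intervals are per gene and were not adjusted for the number of genes.

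**Figure D3:**
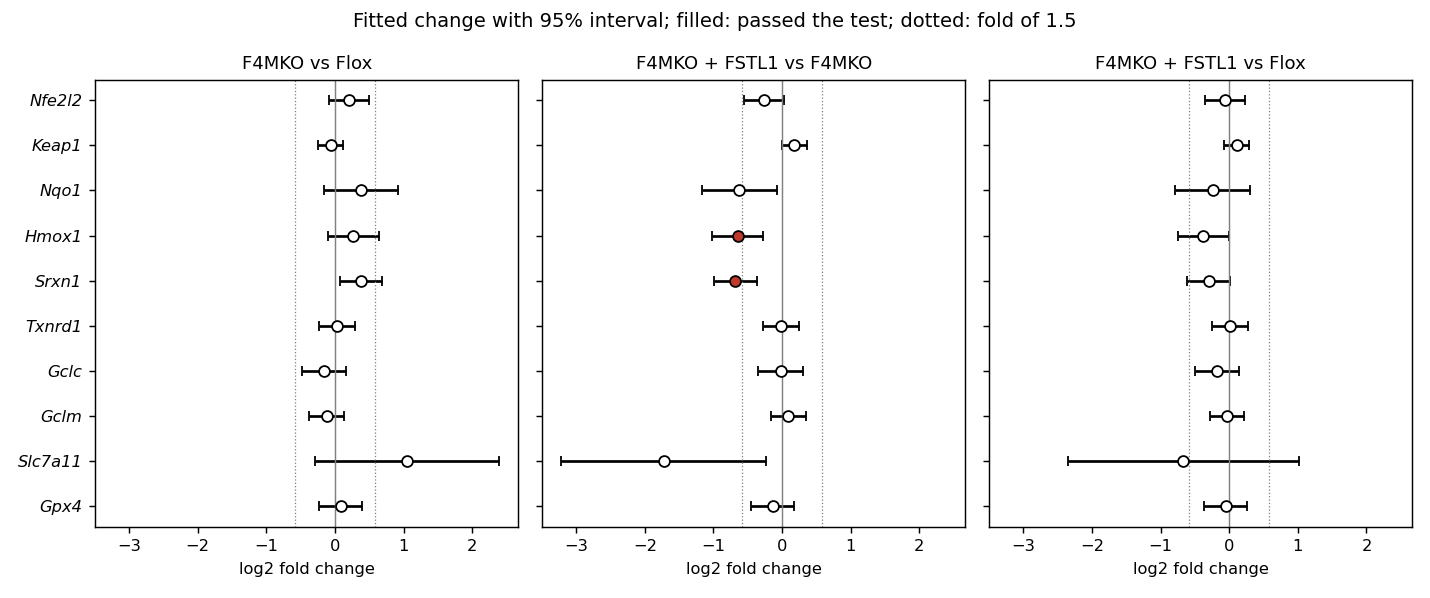
Fitted log2 fold change (points) with its 95% interval (bars) for the 10 NRF2 pathway genes in 3 comparisons, with filled points for genes that passed the test and dotted lines at a fold change of 1.5. Srxn1 (-0.68) and Hmox1 (-0.65) are the filled points, both in F4MKO + FSTL1 compared with F4MKO, and Slc7a11 has the widest intervals.

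Levels of different genes were compared per length, as RPKM, which is CPM divided by length in kilobases, over the merged exons of GENCODE vM21. In Flox livers, Gpx4 was at 189 ± 26.3 RPKM and Gclc at 92.5 ± 9.79 RPKM (SD, n = 3). Nfe2l2 (27.1 RPKM), Gclm (25.7), Srxn1 (23.1) and Hmox1 (20.6) followed, and the neighbours among these 4 overlapped. Txnrd1 (14.9 RPKM), Keap1 (12.2), Nqo1 (4.53) and Slc7a11 (0.0228) came next, each without overlap with the gene before it. The merged exons count every annotated isoform, which lowers the level of a gene with many of them.

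The order changed in the middle of the list. In F4MKO livers Srxn1 reached 30.1 ± 3.76 RPKM and stood behind Nfe2l2 at 31.1 ± 5.94 RPKM, with overlapping ranges. In F4MKO + FSTL1 livers Srxn1 was at 18.8 ± 2.57 RPKM and Hmox1 at 15.9 ± 3.05 RPKM, and the range of Hmox1 then overlapped that of Txnrd1 (15 ± 1.22 RPKM). Gpx4 and Gclc led and Txnrd1, Keap1, Nqo1 and Slc7a11 closed the order in each group.

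The wider antioxidant network was taken from lists of 93 other genes, of which 91 were tested. Alox15 was not analysed here and Ptgs2 had too few counts. In F4MKO + FSTL1 compared with F4MKO, 16 of the 91 passed, 15 lower and 1 higher, or 17.6%, against 14.4% of all genes. Without F4MKO replicate 1, 13 passed, all lower, and Sod1, Cbr3 and Acsl4 lost their calls. Without F4MKO + FSTL1 replicate 1, Abcc4 and Htatip2 did (log2 fold changes -0.91 and -0.53, edgeR adjusted p = 0.0615 and 0.0728). In F4MKO compared with Flox and in F4MKO + FSTL1 compared with Flox, 0 of 91 passed by edgeR, with 16 genes (17.6%) at an unadjusted p under 0.05 in each, against 16.9% and 13.4% of all genes, and DESeq2 called 2 and 3. The median log2 fold change of the 91 was 0.05 in F4MKO + FSTL1 compared with F4MKO, 0.0024 in F4MKO compared with Flox and -5e-04 in F4MKO + FSTL1 compared with Flox.

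Detoxification and export, the largest list with 23 of the 91 genes, held 9 of the 16 calls in F4MKO + FSTL1 compared with F4MKO. These 9 were lower and 0 were higher, or 39.1% of the list, against 11.2% of all genes called lower. Glutathione S-transferases, which attach glutathione to electrophiles, had the largest differences. Gstm3 was at 157, 113 and 114 CPM in Flox, 464, 626 and 367 CPM in F4MKO, and 133, 35.3 and 57.3 CPM in F4MKO + FSTL1. The F4MKO libraries of Gstm3 were above all others by a wide gap. Its log2 fold change in F4MKO + FSTL1 compared with F4MKO was -2.69 (SE 0.41, edgeR adjusted p = 0.00194), and that in F4MKO compared with Flox was 1.92 (SE 0.39, adjusted p = 0.061). Gsta1 followed with 9.496, 10.2 and 7.86 CPM in Flox, 14.6, 21.3 and 21 CPM in F4MKO and 3.04, 1.25 and 5.07 CPM in F4MKO + FSTL1. Gsta1 fell by 2.61 on the log2 scale (edgeR adjusted p = 0.00137), and its 3 groups did not overlap in any pair.

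Gsta4 (log2 fold change -1.03, edgeR adjusted p = 0.00501), the carbonyl reductase Cbr3 (-1.85, 0.0279) and the export pump Abcc4 (-0.96, 0.0207) also fell. Without F4MKO replicate 1, Cbr3 stood at -1.58 (edgeR adjusted p = 0.104). The call of Cbr3 was also lost without F4MKO replicate 2 or F4MKO + FSTL1 replicate 2 or 3, with adjusted p of 0.056, 0.101 and 0.0805, and that of Abcc4 without F4MKO replicate 2 or F4MKO + FSTL1 replicate 2, with 0.0636 and 0.0769. The other genes of this list that fell, named after their values were seen, were Gsta2, Gstm1, Cbr1 and Htatip2, with log2 fold changes from -0.86 to -0.61. Without F4MKO + FSTL1 replicate 2, Gstm1, Cbr1 and Htatip2 lost their calls (edgeR adjusted p = 0.0758, 0.0586 and 0.0941), as did Cbr1 without F4MKO replicate 2 (log2 fold change -0.57) and Htatip2 without F4MKO replicate 3 (adjusted p = 0.066). The glutathione S-transferases are near-identical in part, and the handling of reads that map to several genes was not given in the sources used here, so values of single family members are uncertain.

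In the glutathione list 2 of 9 genes fell, both peroxidases. Gpx2, known from epithelial cells of the gut and bile ducts, had 3, 4 and 4 counts in Flox, 20, 18 and 16 in F4MKO, and 1, 4 and 2 in F4MKO + FSTL1. Its log2 fold change was -2.56 (SE 0.44, edgeR adjusted p = 0.00322), from few counts. The cholangiocyte marker sums given above, which were mostly Spp1, were highest in the same F4MKO libraries, and their part in Gpx2 was not tested. Gpx3, a secreted peroxidase, stood at 28.4, 28.6 and 29.8 CPM in Flox, 52.2, 36.9 and 41.1 CPM in F4MKO, and 19.6, 18.7 and 28.5 CPM in F4MKO + FSTL1. Its log2 fold change was -0.97 (SE 0.17, edgeR adjusted p = 0.00329).

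The other lists held at most 1 change each. In the list of the ATF4 response, Psat1, an enzyme of serine synthesis, fell by 2.13 on the log2 scale (SE 0.40, edgeR adjusted p = 0.00446), 1 of 6 genes. F4MKO replicate 1 was at 7.04 CPM for Psat1 and the other F4MKO libraries at 3.31 and 2.83 CPM, and without it the log2 fold change was -1.61 (edgeR adjusted p = 0.0124). Named after their values were seen, the transferrin receptor Tfrc fell by 0.81 (1 of 11 heme and iron genes), G6pdx, the entry enzyme of the pentose phosphate pathway that makes NADPH, by 0.71 (1 of 6), and Acsl4, which loads membranes with oxidizable lipids, by 0.62 (1 of 6). Without F4MKO replicate 1 the log2 fold change of Acsl4 was -0.53, under the fold threshold. Sod1, the cytosolic superoxide dismutase, was the single gene called higher. It stood at 1051, 866 and 993 CPM in Flox, 637, 700 and 867 CPM in F4MKO and 932, 1163 and 1231 CPM in F4MKO + FSTL1, a log2 fold change of 0.59 (edgeR adjusted p = 0.0185). Its call was lost without F4MKO replicate 1 (0.50, edgeR adjusted p = 0.0665), F4MKO replicate 2 (0.56, 0.0567), F4MKO + FSTL1 replicate 2 (0.56, 0.0697) or F4MKO + FSTL1 replicate 3 (0.52, 0.0568).

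Regulators, thioredoxin and peroxiredoxin genes and selenium insertion genes had 0 of 10, 0 of 9 and 0 of 7 genes called by edgeR. By edgeR 4, 2 and 2 had an unadjusted p under 0.05, and DESeq2 called 0, 1 and 0. Over all genes in F4MKO + FSTL1 compared with F4MKO, edgeR called 14.4% and 35.3% had an unadjusted p under 0.05. The repressor Bach1 had the largest log2 fold change of the regulators, at 0.45 (edgeR adjusted p = 0.0169). Prdx6, a peroxiredoxin that reduces phospholipid peroxides, was at 0.58 (edgeR adjusted p = 0.00602), and Sephs2, which makes the selenium donor for selenoproteins, at 0.56 (edgeR adjusted p = 0.023). These 3 genes passed the adjusted p and fell short of a fold change of 1.5. All 3 F4MKO + FSTL1 libraries were above all 3 F4MKO libraries for each of them.

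**Figure D4:**
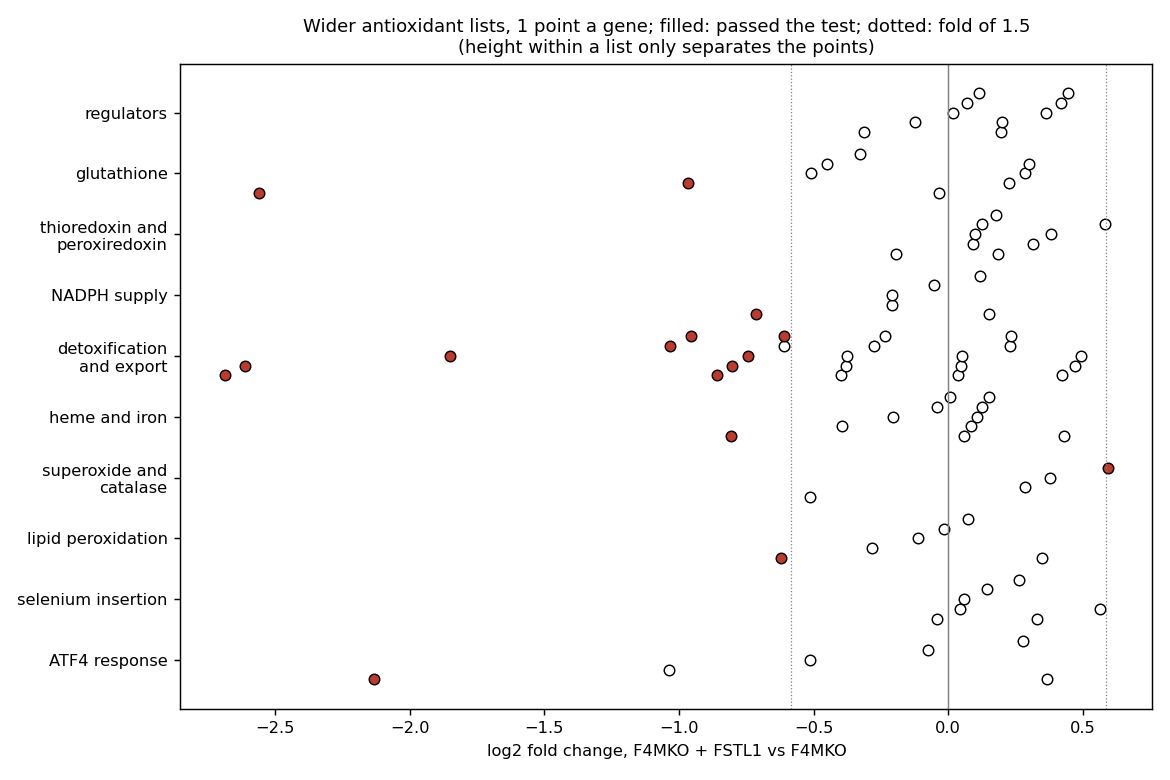
Log2 fold change in F4MKO + FSTL1 compared with F4MKO for 91 genes of the wider antioxidant network, by list, with a point per gene, filled points for genes that passed the test and dotted lines at a fold change of 1.5. Of the 16 filled points 15 lie on the lower side, 9 of them in detoxification and export, and Sod1 (0.59) is the filled point on the higher side.

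Over the 9 libraries, genes whose log2 CPM ran closely with Srxn1 were Tubb2a (Pearson r = 0.99), Ankrd1 (0.99), Ttc39a (0.98) and Tubb2b (0.98). They encode, in that order, a beta-tubulin, an ankyrin repeat protein, a tetratricopeptide repeat protein and another beta-tubulin. Of 14369 other genes tested, 273 had r above 0.9. The points share the group differences and the scaling of each library, and the values are a description over 9 libraries with no test.

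**Figure D5:**
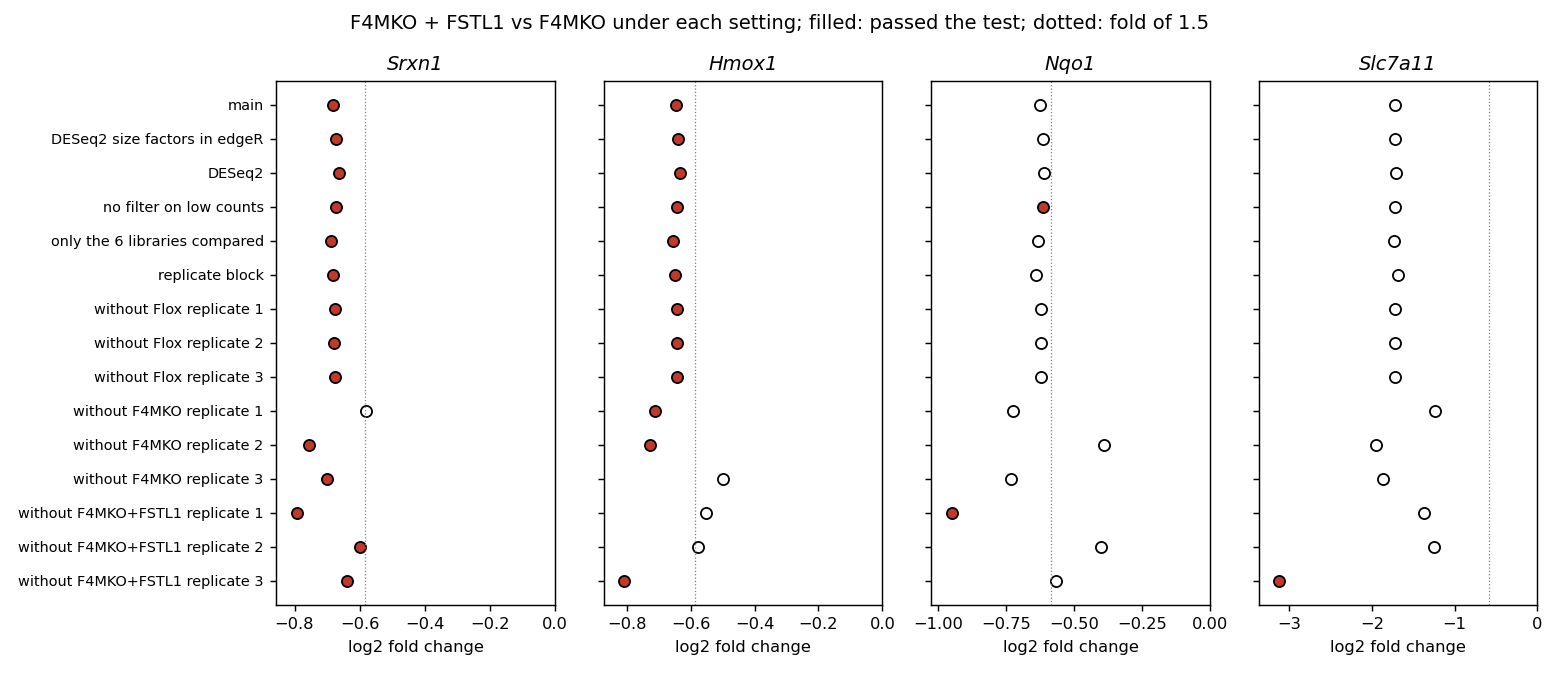
Log2 fold change of Srxn1, Hmox1, Nqo1 and Slc7a11 in F4MKO + FSTL1 compared with F4MKO, under the main setting and 14 alternatives with the same call rule, with filled points where the gene passed the test and a dotted line at a fold change of 1.5. Srxn1 passed in 14 of 15 settings, Hmox1 in 12, Nqo1 in 2 and Slc7a11 in 1, every value is below 0, and the test against a fold change of 1.5, which none of the 4 passed, is not plotted.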

How the data were processed

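RNA of 9 mouse livers (3 per group) was sequenced on BGIseq500 with 150 bp paired-end reads. Per the submitters' processing notes and the methods, the authors used Trim Galore 0.6.7, HISAT2 2.2.1 on mm10 and featureCounts 2.0.1, and deposited whole-number counts per gene, neither normalized nor averaged. The gene annotation, the use of strand and the treatment of multi-mapping reads were not given in the sources used here.

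The analysis used edgeR 4.0.16 under R 4.3.3: filterByExpr (minimum count 10, minimum total 15), TMM factors from 0.927 to 1.17, and a single quasi-likelihood fit of all 9 libraries with a mean per group (common biological coefficient of variation 0.15). A gene was called at a Benjamini-Hochberg adjusted p under 0.05 over 14379 genes and a fold change above 1.5, as in the methods. SE and 95% intervals were derived from the F statistic. CPM used TMM-scaled library sizes, and log2 CPM a prior count of 2. P-values test group differences against the spread between mice, with 3 mice per group. That spread was estimated from all 9 libraries, with information shared across genes. A group with at most 3 counts in every library was treated as at the floor.

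Members, lists and tests were chosen with earlier results of these data known. Named were all members, the 8 called genes with the largest fold change of the wider lists, the gene with the largest fold change in each list without a call, and the 5 genes most like Srxn1, of which 4 are reported here. Positions and exon lengths came from GENCODE vM21 and promoters from RefSeq GRCm38.p6, the same assembly as mm10. The fit was tested on simulated data. Alternatives were DESeq2 1.42.0, its size factors in edgeR, no filter, the 6 libraries compared, a replicate block, an adjusted p alone, edgeR's glmTreat at a fold change of 1.5, and each library left out.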

Additional observations from a re-analysis of the deposited data

How the results depend on the processing

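With 3 mice per group, Slc7a11 rested on 1 to 29 counts per library. For members in F4MKO + FSTL1 compared with F4MKO, the 2 calls became 0 when tested against a fold change of 1.5, and ran from 1 to 3 with a library left out. Srxn1 lost its call without F4MKO replicate 1, and Hmox1 without F4MKO replicate 3 or F4MKO + FSTL1 replicate 1 or 2. Nqo1 gained a call without the filter (log2 fold change -0.62, adjusted p = 0.0434). The adjusted p ranged from 0.000436 to 0.0415 for Srxn1 and from 0.0014 to 0.0859 for Hmox1 over the main setting and the 14 alternatives with the same call rule, and was 0.663 and 0.886 against a fold change of 1.5.

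For the wider lists, the 16 calls in F4MKO + FSTL1 compared with F4MKO became 27 without a fold threshold and 4 against a fold change of 1.5, and ran from 10 (without F4MKO + FSTL1 replicate 2) to 18 with a library left out. The 0 calls in F4MKO compared with Flox became 2 with DESeq2 (Gstm3 and Gsta1), 3 without the filter, 1 with the 6 libraries compared (Gstm3), and 0 to 1 with a library left out. In F4MKO + FSTL1 compared with Flox they became 3 with DESeq2 and 3 without the filter (Gsta1, Gsta2 and Gsta4), and 0 to 1 with a library left out. The cause of these shifts was not tested. Over the same 14379 genes, DESeq2 called 336, 2070 and 284 in F4MKO compared with Flox, F4MKO + FSTL1 compared with F4MKO and F4MKO + FSTL1 compared with Flox, and edgeR 39, 2070 and 1.

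Replicate numbers are shared between groups, but same-numbered mice differ. The correlations of same-numbered deviations ran from 0.0919 to 0.304 in F4MKO + FSTL1 compared with F4MKO, where 3 of 3 libraries correlated best with their own number, from 0.0422 to 0.169 in F4MKO compared with Flox, where 3 of 3 did too, and from -0.0985 to 0.206 in F4MKO + FSTL1 compared with Flox, where 1 of 3 did. With the replicate block, members kept counts of 0, 2 and 0, and the wider lists had 1, 17 and 0.

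Signs turned only in small differences when a library was left out. Ranges of the log2 fold change were -0.172 to 0.0828 for Gclc, -0.0273 to 0.18 for Gclm, -0.23 to 0.0081 for Gpx4 and -0.0815 to 0.0354 for Txnrd1 in F4MKO + FSTL1 compared with F4MKO. They were -0.0599 to 0.191 for Gpx4 and -0.0421 to 0.166 for Txnrd1 in F4MKO compared with Flox. In F4MKO + FSTL1 compared with Flox they were -0.152 to 0.0549 for Gclm, -0.145 to 0.057 for Gpx4, -0.119 to 0.0122 for Nfe2l2 and -0.0579 to 0.15 for Txnrd1.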
